A study of Homo sapiens with 12 samples.

Results

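The 30 genes described here encode enzymes of cholesterol and fatty acid synthesis, the factors that regulate them, a sterol carrier and a phosphatidate phosphatase. They were listed by name as a module, with earlier results of these data known, so their shares beside those of all genes are descriptive only. All 30 were found among the 61044 IDs of the count table and passed the filter on low counts, which left 17532 genes. Their RNA was measured in SCC-15, an established human line from an oral squamous cell carcinoma, grown in serum-containing medium. Cells that carried a negative-control short hairpin RNA (NC) were compared with cells that carried shRNA1, shRNA2 or shRNA3, 3 hairpins against FMOD, the gene of the extracellular matrix proteoglycan fibromodulin. Each of the 4 groups had 3 libraries and was harvested at 48 h. The study is on 1 line and 1 control hairpin, and the labels do not say whether the 3 libraries of a group came from separate cultures, so a p-value measures only the spread between libraries, which may be technical.

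Cholesterol is built from acetyl-CoA through mevalonate, squalene and a series of sterols, and fatty acids are built from the same precursor by carboxylation, chain synthesis, elongation and desaturation. Both routes are under the control of the sterol regulatory element binding proteins SREBP-1 (from SREBF1) and SREBP-2 (from SREBF2). INSIG proteins hold their precursors in the endoplasmic reticulum when sterol is plentiful, and INSIG1 and many of the enzymes are themselves SREBP targets. Tumour cells commonly make fatty acids of their own even when lipid is supplied.

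The target gene could not serve as a check of the labels. FMOD had 2, 2 and 3 counts in the NC libraries and 0 in all 9 shRNA libraries, at or under the 3 counts taken as the detection floor throughout. Libraries held 17286934 to 19567192 counts. The NC libraries stood apart from every shRNA library: across tested genes, log2 values correlated at r of 0.773 to 0.795 between NC and shRNA libraries and at 0.961 to 0.972 between shRNA1 and shRNA2 libraries. The labels do not explain this distance. Any difference between NC and shRNA cells besides the hairpin, such as stock or culture, enters all 3 comparisons with NC, and its part was not tested. The shRNA3 group was split. Its libraries 1 and 2 correlated at 0.987 with each other and at 0.908 to 0.911 with library 3, while library 3 correlated at 0.981 with the shRNA2 libraries. The labels do not explain this split, so changes with shRNA3 are given with all 3 libraries and, as a check, with library 3 alone, which is then assumed to vary like the other groups. Levels are given as CPM, counts per 1000000 counts of the library, with library totals scaled by TMM as described below. All 8 squamous markers (KRT5, KRT14, KRT6A, KRT17, TP63, CDH1, EPCAM and DSG3) were over 1 CPM in every library. Their summed level was 2015 to 2181 CPM in NC, 1224 to 1586 with shRNA1, 1515 to 1564 with shRNA2 and 1295 to 2011 with shRNA3. The single markers went different ways. KRT5 read 963 to 1048 CPM in NC and 16.5 to 90.2 CPM in the shRNA libraries, and CDH1 310 to 335 and 35.3 to 79.4 CPM. KRT14 (6.51 to 9.57 CPM in NC), KRT6A (78.0 to 108) and KRT17 (280 to 345) were higher in all 9 shRNA libraries, at 24.2 to 230, 185 to 451 and 539 to 865 CPM. The fibroblast markers (COL1A1, COL1A2, COL3A1, PDGFRB, DCN and LUM) summed to 56.6 to 59.6 CPM in NC, 15.5 to 21.0 with shRNA1, 44.2 to 48.2 with shRNA2 and 32.6 to 86.5 with shRNA3, with only COL1A1 over 1 CPM in every library. The endothelial markers PECAM1, CDH5 and VWF summed to 17.6 to 23.0 CPM in NC and to 3.88 to 13.2 CPM in the shRNA libraries, a sum that hides opposite moves: CDH5 and VWF were lower in all 9 shRNA libraries and PECAM1 was higher, at 0.101 to 0.197 CPM in NC and 2.09 to 9.68 CPM in the shRNA libraries. The part of these markers in the results below was not tested.

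Of the members whose promoters were searched, only SREBF2 held the sterol element in the form TCACNCCAC. INSIG1, SCD and MSMO1 were far higher in shRNA3 libraries 1 and 2, and TM7SF2 fell most. Promoters of these 5 members, which bracket the patterns below, are shown first. Each is the 250 bases before the RefSeq start site on GRCh38.p14, plus strand, 5′ to 3′, at chr22:41832855-41833104 for SREBF2, chr7:155297628-155297877 for INSIG1, chr10:100346983-100347232 for SCD, chr4:165327419-165327668 for MSMO1 and chr11:65111622-65111871 for TM7SF2. Capitals mark the sterol element TCACNCCAC and the box CCAAT, read on either strand.
SREBF2: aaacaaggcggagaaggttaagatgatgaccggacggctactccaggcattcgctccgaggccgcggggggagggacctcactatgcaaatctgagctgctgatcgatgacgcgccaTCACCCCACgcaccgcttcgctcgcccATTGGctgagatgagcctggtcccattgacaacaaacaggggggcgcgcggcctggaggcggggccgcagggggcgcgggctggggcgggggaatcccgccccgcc
INSIG1: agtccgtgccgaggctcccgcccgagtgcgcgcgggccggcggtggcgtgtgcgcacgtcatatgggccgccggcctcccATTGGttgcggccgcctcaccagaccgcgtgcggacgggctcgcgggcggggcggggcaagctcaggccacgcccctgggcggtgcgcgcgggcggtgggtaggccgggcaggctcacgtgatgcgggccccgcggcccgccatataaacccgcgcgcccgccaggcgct
SCD: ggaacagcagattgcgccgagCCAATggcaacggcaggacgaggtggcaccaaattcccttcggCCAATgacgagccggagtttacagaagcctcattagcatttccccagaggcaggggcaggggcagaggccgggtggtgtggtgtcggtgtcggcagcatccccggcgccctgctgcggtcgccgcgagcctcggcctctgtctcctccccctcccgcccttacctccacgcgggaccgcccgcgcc
MSMO1: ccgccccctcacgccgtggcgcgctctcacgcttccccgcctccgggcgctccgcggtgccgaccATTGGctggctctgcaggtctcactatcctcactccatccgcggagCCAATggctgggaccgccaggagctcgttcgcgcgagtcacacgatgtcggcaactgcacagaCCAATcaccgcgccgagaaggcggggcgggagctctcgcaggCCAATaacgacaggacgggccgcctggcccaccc
TM7SF2: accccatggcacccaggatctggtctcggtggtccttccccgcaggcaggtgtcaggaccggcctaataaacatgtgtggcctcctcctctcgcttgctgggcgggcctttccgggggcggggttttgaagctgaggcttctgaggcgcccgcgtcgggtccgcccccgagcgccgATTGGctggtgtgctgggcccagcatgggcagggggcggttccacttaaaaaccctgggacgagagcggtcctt
RefSeq windows of 300 bases (250 before to 50 after a start) were found for 27 of the 30 members, 39 windows in all, and those of 1 gene can overlap. FASN, FDFT1 and SQLE had no window and were not searched, and other forms of the sterol element were not searched in any member. TCACNCCAC was in 1 of the 39 (2.56%), with its first base at -133 in SREBF2, against 1.13% of the 35116 windows of all genes. CCAAT, the letters bound by NF-Y, a usual partner of SREBPs, was in 59.0% of the members' windows against 34.6% of all. GGGCGG, an SP1 box, was in 87.2% against 45.0%. The windows of all genes were not limited to tested genes, while all 30 members were tested, so the shares compare unlike sets. These matches describe letters only, and their relation to the RNA changes was not tested.

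Changes were measured against NC with edgeR's quasi-likelihood F test, and p-values were adjusted by Benjamini-Hochberg over all tested genes, with 0.05 as the threshold. Levels are CPM after TMM scaling, which aligns libraries on the bulk of their genes. With shRNA1, 14 of the 30 members were higher and 5 were lower, where 26.8% and 30.6% of all tested genes passed in those directions. With shRNA2, 10 were higher and 6 lower, beside 24.6% and 28.4% of all genes. With shRNA3, 19 were higher and 3 lower, beside 26.4% and 27.6%. For the mean of the 3 hairpins 15 were higher and 5 lower, beside 27.9% and 32.2%. The members' median log2 change was 0.50, 0.47 and 1.17 for shRNA1, shRNA2 and shRNA3, where the median of all tested genes was -0.02, -0.05 and -0.03.

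Passing for all 3 hairpins is the stricter count. In that count 10 members (33.3%) rose, FDPS, NSDHL, EBP, SREBF1, ACLY, ACACA, FASN, SCD, ELOVL6 and FADS2, where 16.0% of all tested genes did. The 3 members (10.0%) that fell for all 3 hairpins were LSS, TM7SF2 and INSIG2, where 19.7% of all genes did. By level alone, 14 members (46.7%) had all 9 shRNA libraries above all 3 NC libraries, beside 19.0% of all genes, namely these 10 and HMGCS1, IDI1, SQLE and INSIG1. All 9 lay below all 3 in 4 members (13.3%), LSS, TM7SF2, INSIG2 and LPIN1, beside 25.8% of all genes. On library totals in place of TMM these counts were 14, beside 14.1%, and 5, with DHCR7 added, beside 30.9%. The comparisons share their NC libraries, so the hairpins are not independent of each other here. Agreement between hairpins therefore cannot tell their effect apart from another difference between the NC and shRNA cells. In bulk RNA, fewer cells of a type and less RNA per cell cannot be told apart.

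**Figure D1:**
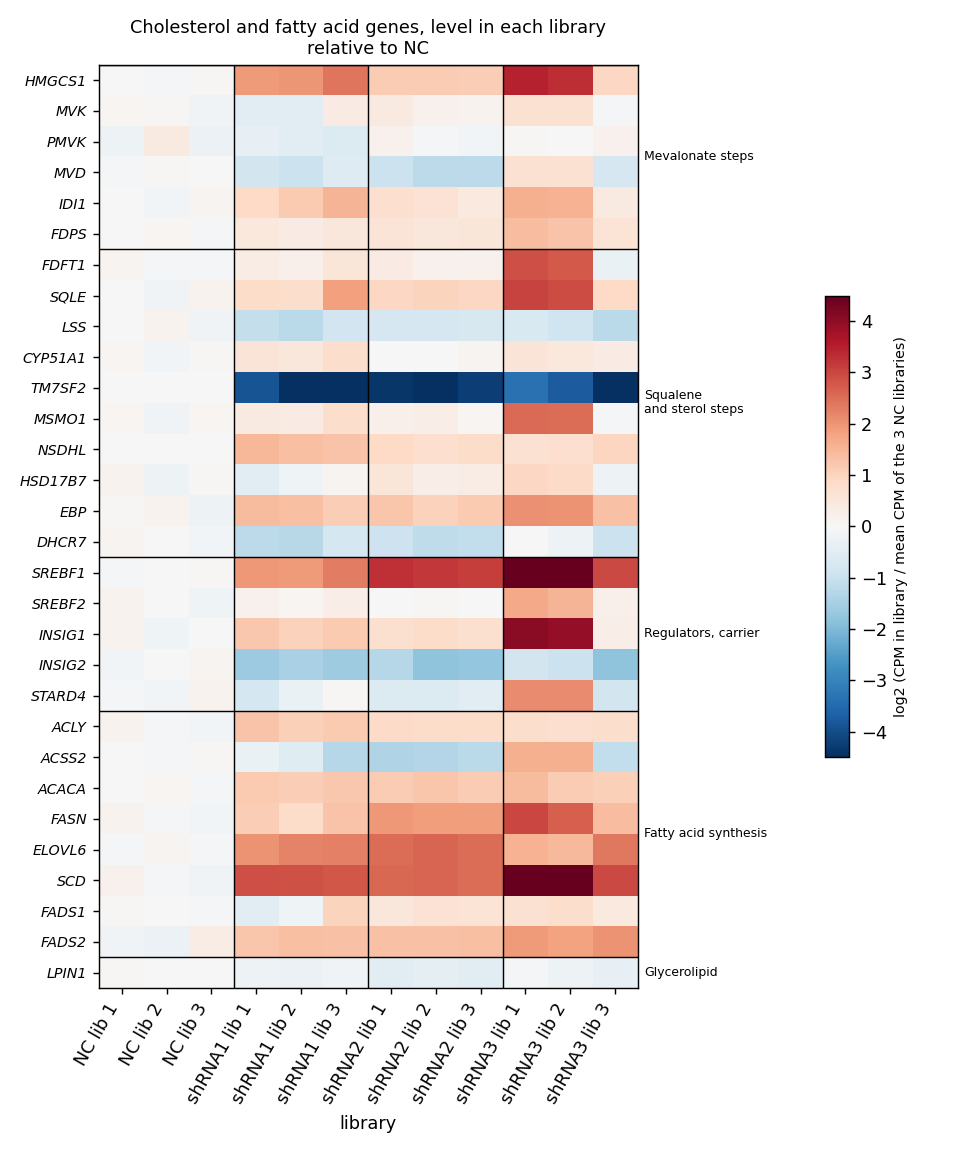
Level of each of the 30 genes (rows, grouped by role) in each of the 12 libraries (columns), as the log2 ratio of its CPM to the mean CPM of the 3 NC libraries; ratios past the ends of the colour scale take the end colour. SREBF1, SCD and ELOVL6 are above NC in all 9 shRNA libraries and TM7SF2 is below, while INSIG1, FDFT1, MSMO1 and STARD4 stand out in shRNA3 libraries 1 and 2 and not in library 3.

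Among the regulators, SREBF1 rose with every hairpin. SREBF1 (chr17:17810399-17837002, minus strand, GENCODE 29 on GRCh38) read 40.7, 43.7 and 43.9 CPM in the NC libraries. It read 166, 162 and 213 CPM with shRNA1, 417, 388 and 370 CPM with shRNA2, and 1109, 957 and 335 CPM with shRNA3. No shRNA library overlapped the NC range, and shRNA3 library 3 lay below the shRNA2 libraries while libraries 1 and 2 lay far above them. The log2 changes were 2.08 ± 0.34 (SE; adjusted p = 0.000348), 3.19 ± 0.36 (adjusted p = 2.28e-05) and 4.23 ± 0.37 (adjusted p = 4.69e-06), and 3.00 ± 0.14 (adjusted p = 3.41e-09) for shRNA3 library 3 alone. SREBF1 overlaps RAI1, which lies on the opposite strand, and whether reads were counted by strand is not given in the sources used here. RAI1 itself went from 60.8, 67.0 and 63.2 CPM in NC to between 105 and 132 CPM in the shRNA libraries.

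SREBF2, which encodes the SREBP most tied to cholesterol synthesis, was high in 2 libraries only. It read 210, 186 and 165 CPM in NC, 214, 198 and 229 CPM with shRNA1, and 191, 194 and 186 CPM with shRNA2. With shRNA3 it read 615, 537 and 220 CPM. The shRNA1 and shRNA2 ranges overlapped that of NC (log2 changes of 0.19 and 0.02, adjusted p of 0.586 and 0.95), and the change with shRNA3 was 1.29 ± 0.29 (adjusted p = 0.00296) with all libraries and 0.27 (adjusted p = 0.101) with library 3 alone. The gene (chr22:41833079-41907308, plus strand) also holds the microRNA gene MIR33A and overlaps SREBF2-AS1 on the other strand.

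INSIG2 was lower with every hairpin, while INSIG1 lay above NC in all 9 shRNA libraries but, of the single hairpins, passed with shRNA3 only. INSIG2 (chr2:118088452-118110997, plus strand) read 27.7, 29.7 and 32.2 CPM in NC. It read 9.64, 11.0 and 9.75 CPM with shRNA1, 12.2, 8.56 and 8.91 CPM with shRNA2 and 16.7, 15.3 and 8.58 CPM with shRNA3. Every shRNA library was under the NC range, and the log2 changes of -1.56 ± 0.25, -1.60 ± 0.25 and -1.14 ± 0.25 passed for each hairpin (adjusted p of 0.000304, 0.000281 and 0.0024), as did -1.77 ± 0.24 for shRNA3 library 3 alone (adjusted p = 3.62e-05).

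INSIG1 (chr7:155297776-155310235, plus strand), whose promoter is printed above, read 25.6, 19.9 and 23.0 CPM in NC. It read 52.8, 47.0 and 51.8 CPM with shRNA1 and 37.7, 40.6 and 37.9 CPM with shRNA2. With shRNA3 it read 385, 357 and 28.3 CPM, so that libraries 1 and 2 were far above every other library and library 3 was the lowest of the 9 shRNA libraries. All 9 lay above NC, yet the log2 changes of 1.15 ± 0.62 and 0.76 ± 0.62 for shRNA1 and shRNA2 did not pass (adjusted p of 0.137 and 0.325). The spread of the shRNA3 libraries enters the dispersion that all groups share. For the mean of the hairpins the INSIG1 change was 1.80 ± 0.56 (adjusted p = 0.0162). That call was lost without NC library 2 or 3 (adjusted p of 0.0661 and 0.0556) and with no filter on low counts (adjusted p = 0.057). With shRNA3 the change was 3.49 ± 0.68 (adjusted p = 0.00112), and 0.34 ± 0.16 (adjusted p = 0.077) with library 3 alone.

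STARD4, a carrier that moves cholesterol between membranes, followed the same split. It read 26.4, 25.5 and 30.7 CPM in NC and 120, 119 and 15.7 CPM with shRNA3, and between 15.9 and 28.3 CPM with shRNA1 and shRNA2. The shRNA3 rise of 1.62 ± 0.54 (adjusted p = 0.0246) became -0.78 (adjusted p = 0.0215) with library 3 alone. It also lost its call when any 1 NC library, or shRNA3 library 1 or 2, was left out (adjusted p from 0.056 to 0.0761).

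**Figure D2:**
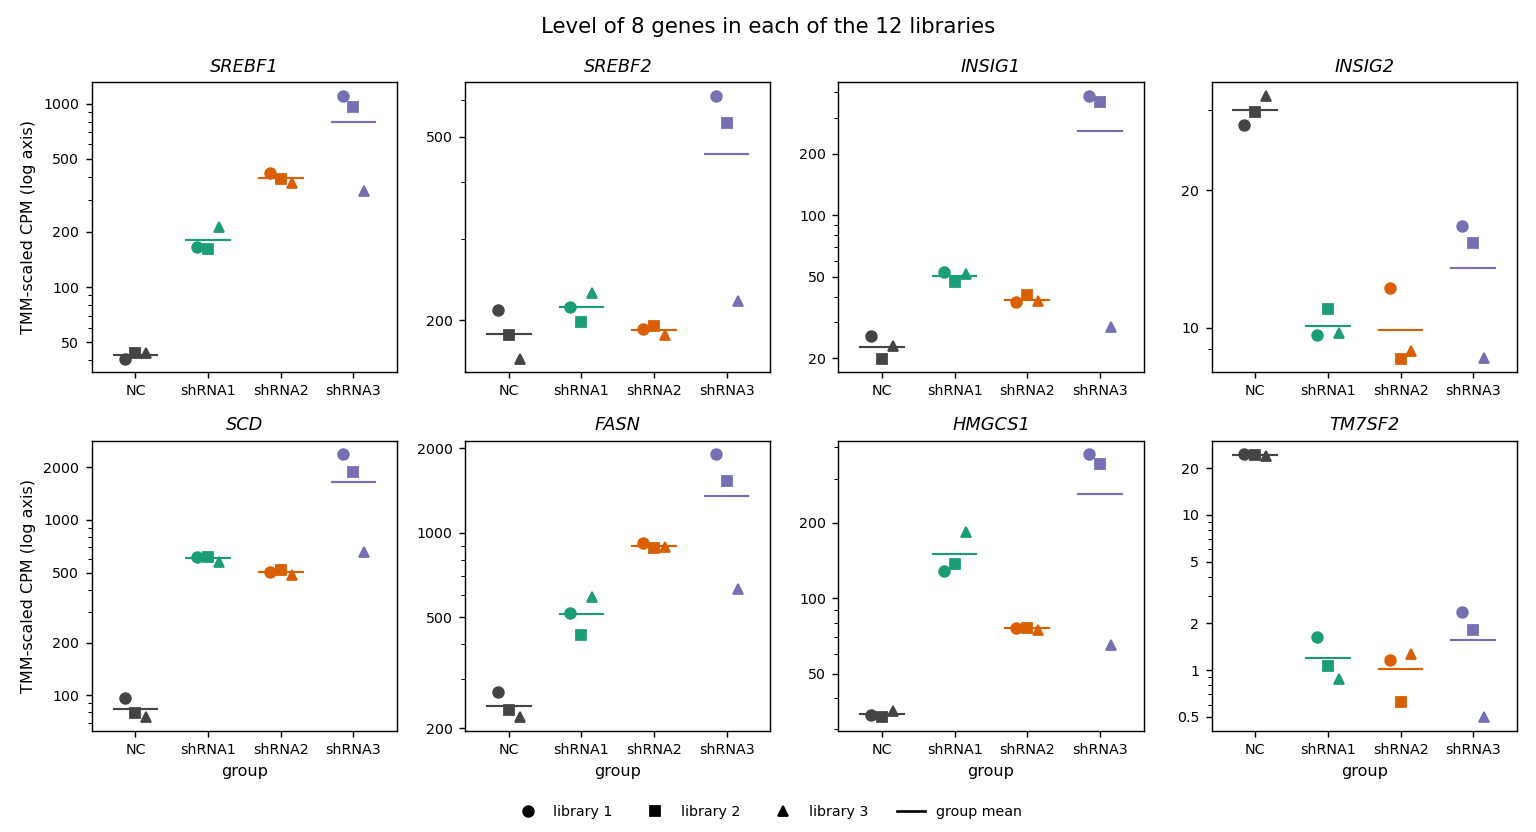
TMM-scaled CPM (log axis, a separate range in each panel) of 8 genes in the 12 libraries, with the group on the horizontal axis, the library by symbol and the group mean as a line. SREBF1, SCD, FASN and HMGCS1 lie above NC in all 9 shRNA libraries, INSIG2 and TM7SF2 lie below, and in 6 of the 8 panels (all but INSIG2 and TM7SF2) shRNA3 libraries 1 and 2 are the highest of the 12.

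The fatty acid genes gave the most even rise: the same 6 of 8 (ACLY, ACACA, FASN, SCD, ELOVL6 and FADS2) passed as higher with every hairpin and none passed as lower. Of all tested genes, 16.0% passed as higher with all 3 hairpins. The shares that passed as lower were 30.6% with shRNA1, 28.4% with shRNA2 and 27.6% with shRNA3. The median log2 change of the 8 was 1.18 with shRNA1, 1.26 with shRNA2 and 1.54 with shRNA3. ACLY, which cuts cytosolic citrate into acetyl-CoA, read 155, 135 and 127 CPM in NC. It read 341, 290 and 315 CPM with shRNA1, 250, 245 and 244 CPM with shRNA2 and 238, 234 and 241 CPM with shRNA3. The 3 shRNA3 libraries did not split here, and the log2 changes were 1.18 ± 0.12, 0.82 ± 0.12 and 0.77 ± 0.12 (adjusted p of 1.05e-05, 0.000144 and 0.000231), with 0.82 for shRNA3 library 3 alone.

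ACACA, the acetyl-CoA carboxylase that commits acetyl-CoA to fatty acids, changed by nearly the same amount with each hairpin. It read 66.2, 68.4 and 60.5 CPM in NC, 147, 140 and 152 CPM with shRNA1, 144, 156 and 144 CPM with shRNA2 and 175, 143 and 137 CPM with shRNA3. All 9 shRNA libraries were at least 137 CPM. The log2 changes were 1.17 ± 0.12, 1.18 ± 0.12 and 1.22 ± 0.13 (adjusted p of 1.55e-05, 1.46e-05 and 1.26e-05), with 1.10 for shRNA3 library 3 alone.

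FASN, the synthase that makes palmitate, read 269, 232 and 219 CPM in NC. It read 518, 430 and 589 CPM with shRNA1, 919, 880 and 886 CPM with shRNA2 and 1908, 1532 and 632 CPM with shRNA3. Library 3 of shRNA3 fell between the shRNA1 and shRNA2 libraries, and the other libraries of that group were the highest. The changes were 1.09 ± 0.31 (adjusted p = 0.0109), 1.90 ± 0.32 (adjusted p = 0.000428) and 2.50 ± 0.33 (adjusted p = 7.36e-05), and 1.42 ± 0.15 with shRNA3 library 3 alone.

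SCD (chr10:100347124-100364834, plus strand), the desaturase that makes oleate and palmitoleate, had the largest log2 rise of the 30 members with shRNA1 and shRNA3. It read 96.5, 79.6 and 74.9 CPM in NC, 618, 616 and 577 CPM with shRNA1 and 506, 519 and 483 CPM with shRNA2. With shRNA3 it read 2367, 1875 and 658 CPM. The lowest shRNA library was thus several times the highest NC library, and the log2 changes were 2.85 ± 0.36 (adjusted p = 5.67e-05), 2.59 ± 0.36 (adjusted p = 0.000114) and 4.29 ± 0.39 (adjusted p = 5.39e-06). With shRNA3 library 3 alone the change was 3.00 ± 0.12 (adjusted p = 1.27e-09).

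ELOVL6, which elongates palmitate to stearate, did not share the peak of shRNA3 libraries 1 and 2. It read 13.0, 14.9 and 13.2 CPM in NC, 55.0, 64.2 and 66.2 CPM with shRNA1, 78.7, 83.9 and 78.3 CPM with shRNA2 and 40.6, 38.0 and 71.6 CPM with shRNA3. In this gene those libraries were the lowest of the 9 and library 3 lay between the shRNA1 and shRNA2 libraries. The changes were 2.17 ± 0.22, 2.55 ± 0.23 and 1.87 ± 0.22 (adjusted p of 1.26e-05, 4.47e-06 and 3.74e-05), with 2.41 for shRNA3 library 3 alone.

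The desaturases of polyunsaturated fatty acids lie next to each other on chromosome 11. FADS2, the Δ6 desaturase, read 6.25, 5.75 and 8.81 CPM in NC, 16.6, 17.8 and 17.4 CPM with shRNA1, 17.5, 17.3 and 17.6 CPM with shRNA2 and 26.3, 24.5 and 28.5 CPM with shRNA3. No library overlapped NC, and the changes of 1.31 ± 0.19, 1.33 ± 0.19 and 1.93 ± 0.19 all passed (adjusted p of 0.000119, 0.000117 and 8.89e-06), as did 2.06 for shRNA3 library 3 alone. FADS1, the Δ5 desaturase, read 34.3, 34.2 and 31.7 CPM in NC and 24.2 to 66.8 CPM in the shRNA libraries, and passed with no hairpin (adjusted p from 0.0917 to 0.482). The annotated genes overlap on opposite strands, and reads from the overlap cannot be told apart without strand.

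ACSS2, which makes acetyl-CoA from acetate, was the fatty acid gene most divided between libraries. It read 79.1, 75.5 and 81.1 CPM in NC and 241, 238 and 36.6 CPM with shRNA3. With shRNA1 it read 63.9, 54.4 and 32.3 CPM and with shRNA2 30.7, 31.7 and 33.7 CPM, all below NC. None of the 3 comparisons passed (log2 changes of -0.65, -1.30 and 1.13, adjusted p of 0.297, 0.0524 and 0.0821), while shRNA3 library 3 alone was lower by a log2 change of -1.07 (adjusted p = 0.00611).

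**Figure D3:**
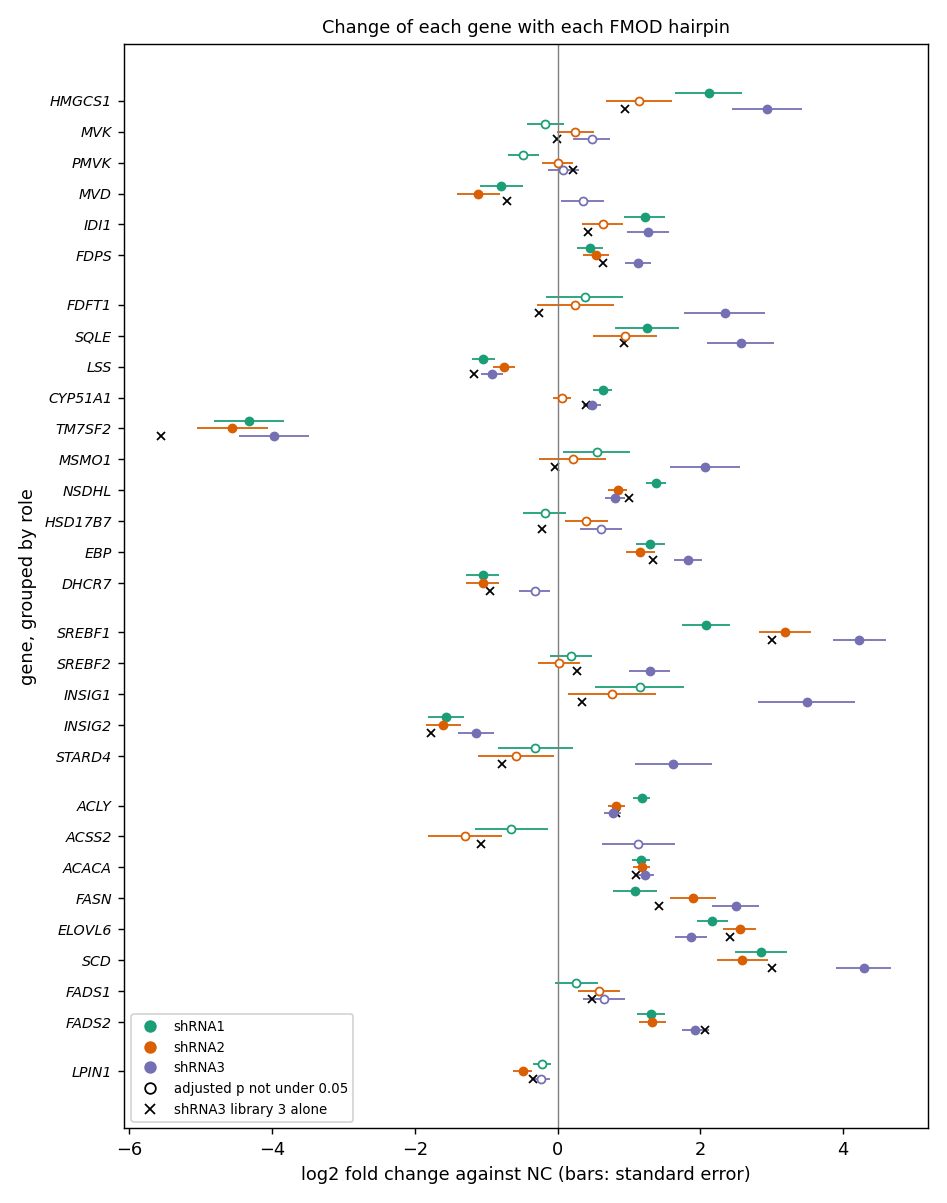
Log2 change against NC (horizontal axis, bars are 1 standard error) of each gene with shRNA1, shRNA2 and shRNA3, with open symbols where the adjusted p was not under 0.05, and crosses for shRNA3 library 3 alone. The crosses of FDFT1, MSMO1, INSIG1 and SREBF2 lie near 0, far from the shRNA3 points, while those of SREBF1, SCD, ACACA, ACLY and TM7SF2 stay on the same side of 0 as the points.

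In the mevalonate steps, 3 of 6 genes rose with shRNA1, 1 with shRNA2 and 3 with shRNA3, where 26.8%, 24.6% and 26.4% of all tested genes did. MVD fell with shRNA1 and shRNA2. HMGCS1, which makes HMG-CoA, read 34.3, 33.5 and 35.5 CPM in NC. It read 129, 137 and 184 CPM with shRNA1, 76.4, 76.4 and 74.5 CPM with shRNA2 and 376, 345 and 65.2 CPM with shRNA3. All 9 shRNA libraries were above NC, with changes of 2.12 ± 0.47 (adjusted p = 0.00252), 1.14 ± 0.46 (adjusted p = 0.056) and 2.93 ± 0.49 (adjusted p = 0.000406). With shRNA3 library 3 alone the change was 0.95 ± 0.17 (adjusted p = 0.000323). IDI1, the isopentenyl diphosphate isomerase, rose by 1.22 ± 0.29 with shRNA1 and 1.27 ± 0.29 with shRNA3, from 13.1 to 15.2 CPM in NC to 18.5 to 42.3 CPM in the shRNA libraries, and the shRNA3 call was lost with library 3 alone (0.42, adjusted p = 0.129).

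FDPS, which makes farnesyl diphosphate, read 92.9, 99.9 and 88.9 CPM in NC. It read 130, 122 and 133 CPM with shRNA1, 142, 133 and 136 CPM with shRNA2 and 244, 230 and 143 CPM with shRNA3. The rises of 0.45 ± 0.18 and 0.54 ± 0.18 with shRNA1 and shRNA2 were small (adjusted p of 0.045 and 0.022), and that with shRNA3 was 1.13 ± 0.18 (adjusted p = 0.000273), or 0.63 (adjusted p = 0.00035) with library 3 alone. The shRNA1 call was lost when any 1 NC, shRNA1 or shRNA2 library was left out (adjusted p from 0.057 to 0.126), and the shRNA2 call without NC library 1, NC library 3 or shRNA2 library 1 (adjusted p of 0.0596, 0.0738 and 0.0599). MVD, the diphosphomevalonate decarboxylase, read 39.4, 43.0 and 41.7 CPM in NC, 18.3 to 27.6 CPM in the shRNA1 and shRNA2 libraries and 67.1, 66.8 and 24.8 CPM with shRNA3. It fell with shRNA1 (-0.79 ± 0.30, adjusted p = 0.0423) and shRNA2 (-1.11 ± 0.30, adjusted p = 0.00927). With shRNA3 its change was 0.35 (adjusted p = 0.339), and -0.71 (adjusted p = 0.00456) with library 3 alone. The shRNA1 call was lost on leaving out any 1 NC, shRNA1 or shRNA2 library (adjusted p from 0.0546 to 0.13). The kinases MVK and PMVK passed with no hairpin, with log2 changes from -0.48 to 0.48.

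Of the 10 genes of the squalene and sterol steps, 4 were higher and 3 lower with shRNA1, beside 26.8% and 30.6% of all tested genes. With shRNA2 2 were higher and 3 lower, beside 24.6% and 28.4%, so that these counts lie near the shares of all genes. With shRNA3 6 were higher and 2 lower, beside 26.4% and 27.6%. TM7SF2 (chr11:65111845-65116384, plus strand), a sterol C14 reductase, had the largest change of the 30 members with shRNA1, shRNA2 and the mean of the hairpins. It read 24.6, 24.3 and 23.8 CPM in NC, 1.64, 1.06 and 0.877 CPM with shRNA1, 1.17, 0.62 and 1.27 CPM with shRNA2 and 2.37, 1.82 and 0.496 CPM with shRNA3. No shRNA library came above 2.37 CPM. The log2 changes were -4.33 ± 0.49, -4.56 ± 0.50 and -3.98 ± 0.49 (adjusted p of 2.51e-05, 2.05e-05 and 4.66e-05), with -5.56 for shRNA3 library 3 alone. TM7SF2 overlaps VPS51 on the same strand, and VPS51 fell less, from 127, 136 and 120 CPM in NC to between 42.0 and 84.4 CPM in the shRNA libraries (log2 changes of -1.43, -0.66 and -0.79).

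LSS, which cyclises squalene epoxide to lanosterol, read 63.7, 71.9 and 58.7 CPM in NC, 30.7, 28.0 and 36.0 CPM with shRNA1, 38.1, 38.1 and 39.4 CPM with shRNA2 and 40.0, 34.9 and 28.1 CPM with shRNA3. It lay below NC in all 9 libraries, with changes of -1.04 ± 0.16, -0.75 ± 0.16 and -0.92 ± 0.16 (adjusted p of 0.000221, 0.00206 and 0.000567), and -1.17 for shRNA3 library 3 alone. DHCR7, the last enzyme of one branch to cholesterol, read 151, 136 and 129 CPM in NC and 59.0 to 80.3 CPM with shRNA1 and shRNA2. It fell by 1.05 on the log2 scale with each of these (adjusted p of 0.00197 and 0.00215). With shRNA3 it read 142, 120 and 70.5 CPM and did not pass (-0.32, adjusted p = 0.24), and library 3 alone was lower by a log2 change of -0.95 (adjusted p = 0.000639).

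NSDHL and EBP rose with every hairpin. NSDHL, which takes part in removing the C4 methyl groups, read 17.1, 16.9 and 17.5 CPM in NC, 48.8, 43.5 and 41.6 CPM with shRNA1, 32.4, 29.2 and 30.6 CPM with shRNA2 and 27.6, 29.0 and 33.6 CPM with shRNA3. Its changes were 1.38 ± 0.14, 0.84 ± 0.14 and 0.81 ± 0.14 (adjusted p of 9.92e-06, 0.000343 and 0.000457). The shRNA3 change also passed with library 3 alone (adjusted p = 4.92e-05), and was 0.49 (adjusted p = 0.0532) on library totals in place of TMM. EBP, the sterol Δ8-Δ7 isomerase, read 37.2, 40.6 and 31.2 CPM in NC, 96.9, 93.6 and 77.9 CPM with shRNA1, 85.9, 74.6 and 82.4 CPM with shRNA2 and 150, 147 and 90.0 CPM with shRNA3, with changes of 1.30 ± 0.20, 1.16 ± 0.20 and 1.83 ± 0.20 (adjusted p of 0.000193, 0.000459 and 2.03e-05), and 1.34 for shRNA3 library 3 alone.

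FDFT1, MSMO1 and SQLE had their shRNA3 rise mostly in 2 libraries. FDFT1, the squalene synthase, read 137, 121 and 120 CPM in NC, 143 to 184 CPM with shRNA1 and shRNA2, and 952, 863 and 103 CPM with shRNA3. Its shRNA3 change of 2.34 ± 0.57 (adjusted p = 0.00453) became -0.26 (adjusted p = 0.142) with library 3 alone. MSMO1, a sterol C4 methyl oxidase, read 34.0, 28.8 and 34.0 CPM in NC and 188, 186 and 30.9 CPM with shRNA3, a change of 2.06 ± 0.49 (adjusted p = 0.00404) that became -0.03 (adjusted p = 0.887). SQLE, the squalene epoxidase, read 30.9, 27.4 and 34.2 CPM in NC and 252, 239 and 57.7 CPM with shRNA3, and its change of 2.57 ± 0.47 (adjusted p = 0.000763) was 0.93 (adjusted p = 0.0333) with library 3 alone. With shRNA1, SQLE rose by 1.25 ± 0.45 (adjusted p = 0.0334), a call lost without any 1 NC library or without shRNA1 library 3 (adjusted p from 0.066 to 0.156). CYP51A1, the lanosterol demethylase, rose by 0.63 ± 0.13 with shRNA1 and 0.48 ± 0.13 with shRNA3 (adjusted p of 0.00136 and 0.00758). Its shRNA3 change was 0.40 (adjusted p = 0.0285) with library 3 alone and 0.13 (adjusted p = 0.434) on library totals in place of TMM. HSD17B7, a sterol 3-ketoreductase, passed with no hairpin (adjusted p from 0.104 to 0.638).

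LPIN1, a phosphatidate phosphatase of glycerolipid synthesis, was lower in all 9 shRNA libraries by a small amount. It read 38.9, 37.0 and 36.9 CPM in NC and 26.2 to 35.1 CPM in the shRNA libraries, and it passed with shRNA2 (-0.49 ± 0.13, adjusted p = 0.0071) and not with shRNA1 or shRNA3 (adjusted p of 0.153 and 0.144), while shRNA3 library 3 alone gave -0.35 (adjusted p = 0.0392).

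The split of the shRNA3 group covered much of the sterol arm. Libraries 1 and 2 were above all other 10 libraries in 17 of the 30 members (56.7%), where 20.5% of all tested genes were, and below them in 0, where 21.2% of all genes were. The 17 were HMGCS1, MVK, MVD, IDI1 and FDPS of the mevalonate steps, FDFT1, SQLE, MSMO1, HSD17B7 and EBP of the sterol steps, INSIG1, SREBF1, SREBF2 and STARD4, and the fatty acid genes FASN, SCD and ACSS2. These libraries also had the lowest TMM factors, 0.771 and 0.795 where library 3 had 1.06, and on library totals without TMM the count was 15, with MVK and IDI1 no longer in it, beside 10.9% of all genes.
With library 3 as the only shRNA3 library, 13 members were higher and 8 lower than NC, where 28.1% and 28.8% of all genes passed. The higher ones were SREBF1, SCD, FASN, ELOVL6, EBP, FADS2, HMGCS1, FDPS, SQLE, CYP51A1, NSDHL, ACLY and ACACA, and TM7SF2, INSIG2, LSS, DHCR7, ACSS2, STARD4, MVD and LPIN1 were lower. With library 3 left out instead, 23 members were higher and 3 lower, beside 32.3% and 40.7% of all genes. The leukocyte markers also differed: the sum of 4 markers, PTPRC, CD3E and CD68 among them, was 109 to 235 CPM in the shRNA3 libraries, 53.8 to 72.0 in NC, 43.8 to 96.3 with shRNA1 and 80.2 to 85.7 with shRNA2. CD68 was the only one over 1 CPM in every library, and PTPRC and CD3E had at most 9 and 4 counts in any library. Of the adipocyte and hepatocyte markers, ADIPOQ, LEP, ALB and TTR had at most 3 counts in any library, APOA1 had at most 5, and PLIN1 had 21, 21 and 19 in NC and at most 9 in the shRNA libraries. The part of these markers in the split was not tested.

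**Figure D4:**
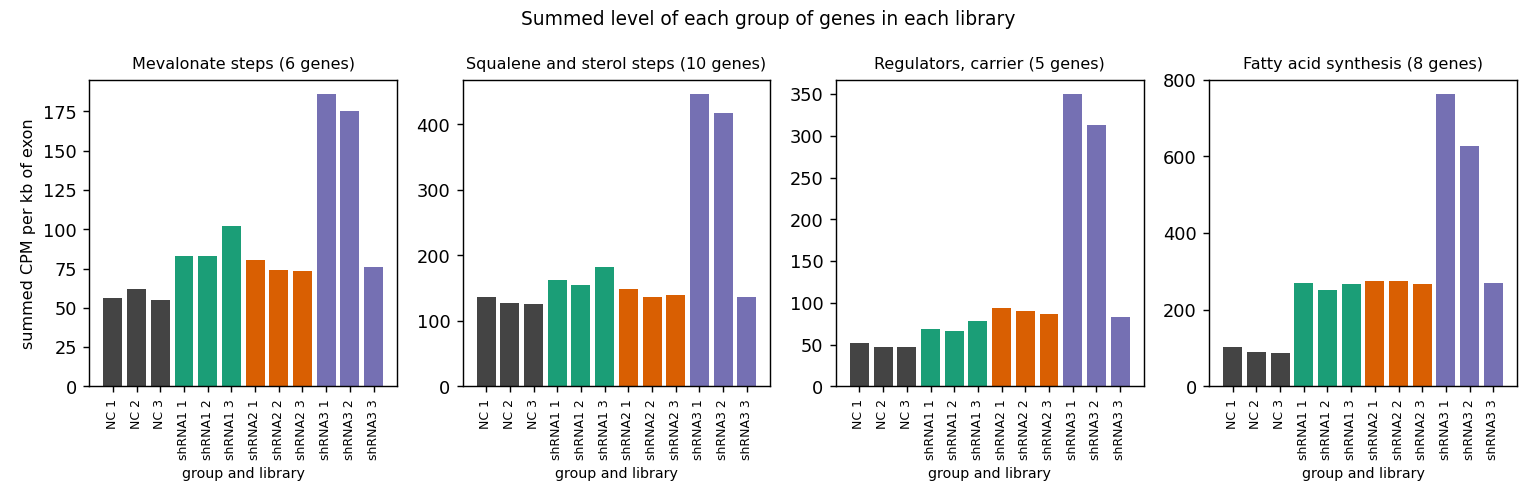
Sum of TMM-scaled CPM per kilobase of exon over the genes of 4 roles (LPIN1 is not drawn), 1 bar a library, coloured by group. The mevalonate, regulator and fatty acid sums are above every NC library in all 9 shRNA libraries, while the squalene and sterol sum is not. In each of the 4 panels shRNA3 libraries 1 and 2 are the 2 highest bars and library 3 is near the shRNA2 libraries.

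Levels of different genes can be set side by side only per length, here as CPM per kilobase of exon. Length joins all annotated exons of a gene and can exceed that of the transcripts present, so the order of genes is approximate. Summed this way, the 8 fatty acid genes went from 93.3 ± 7.65 (SD, n = 3) in NC to 262 ± 10.4 with shRNA1, 271 ± 4.60 with shRNA2 and 553 ± 254 with shRNA3, whose libraries gave 762, 626 and 270. The sum of the 10 squalene and sterol genes was 130.0 ± 6.01 in NC, 167 ± 14.3 with shRNA1, 142 ± 6.22 with shRNA2 and 446, 417 and 137 in the shRNA3 libraries. The mevalonate sum was 57.8 ± 3.79 in NC, 89.4 ± 10.7 with shRNA1, 76.1 ± 3.64 with shRNA2 and 186, 175 and 76.0 with shRNA3. That of the 5 regulator and carrier genes was 48.7 ± 2.4 in NC, 71.1 ± 6.55 with shRNA1, 90.3 ± 3.56 with shRNA2 and 350, 313 and 83.5 with shRNA3. In relative terms the fatty acid sum thus moved furthest with shRNA1 and shRNA2, and the sums describe these libraries with no test.
In NC the order per kilobase was led by DHCR7 at 33.4 ± 2.63, then ACLY at 26.7 ± 2.70, FASN at 25.7 ± 2.77, FDPS at 25.3 ± 1.50, SREBF2 at 24.7 ± 2.94 and FDFT1 at 24.2 ± 1.83, and from ACLY to FDFT1 neighbours differed by less than their SDs. SCD stood at 15.6 ± 2.11 in NC, and with shRNA1 it led at 113 ± 4.30, above ACLY at 60.5 ± 4.88 and FASN at 54.7 ± 8.51. With shRNA2, FASN at 95.6 ± 2.27 and SCD at 93.8 ± 3.42 led and did not differ beyond their SDs. With shRNA3 SCD stood at 305 ± 164, FASN at 145 ± 70.0 and FDFT1 at 123 ± 89.7, and these wide SDs overlap. FADS2 was the lowest in NC at 0.629 ± 0.149.

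Hairpins were also compared with each other, since a call with one and none with another does not show that they differ. Between shRNA1 and shRNA2, 2 members were higher with shRNA1 (CYP51A1 by 0.57, adjusted p = 0.0162, and NSDHL by 0.54, adjusted p = 0.0271) and 1 was lower, beside 5.78% and 6.53% of all genes. The lower one was SREBF1, at -1.12 ± 0.33 (adjusted p = 0.0492), a call lost on leaving out any 1 NC, shRNA1 or shRNA2 library or shRNA3 library 2 (adjusted p from 0.0519 to 0.167). The CYP51A1 call was lost without any 1 shRNA2 library (adjusted p from 0.0613 to 0.0806), and that of NSDHL without NC library 3, shRNA1 library 1 or 2, or any 1 shRNA2 library (adjusted p from 0.0506 to 0.121). Without shRNA3 library 3, whose spread enters the shared dispersion, 10 members were higher and 5 lower, beside 20.5% and 19.2% of all genes.

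Between shRNA1 and shRNA3, 14 members were lower with shRNA1 and 2 were higher (NSDHL by 0.57 and ACLY by 0.41), beside 18.1% and 11.9% of all genes. Against library 3 alone the NSDHL and ACLY differences were 0.39 and 0.38 and did not pass (adjusted p of 0.121 and 0.0982). INSIG1 differed most, by -2.35 ± 0.64 (adjusted p = 0.0217), and with library 3 as the only shRNA3 library it was higher with shRNA1, by 0.82 ± 0.16 (adjusted p = 0.01). SREBF1 was lower with shRNA1 by -2.15 ± 0.34 (adjusted p = 0.00374), and by -0.91 ± 0.14 (adjusted p = 0.00339) against library 3 alone, the direction being kept. The count of 14 became 2 without shRNA1 library 1, 1 without shRNA1 library 2, 2 without shRNA3 library 1, 3 without shRNA3 library 2 and 20 without shRNA3 library 3. No share of all genes was set beside these refits, so they do not show whether the members moved more than other genes. The INSIG1 call was lost without any 1 shRNA1 library or without shRNA3 library 1 or 2 (adjusted p from 0.0569 to 0.077).

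Between shRNA2 and shRNA3, 9 members were lower with shRNA2 and 0 were higher, beside 6.43% and 1.91% of all genes. The 9 were INSIG1, ACSS2, STARD4, FDFT1, MSMO1, HMGCS1, SCD, MVD and SREBF2. INSIG1 led at -2.73 ± 0.65 (adjusted p = 0.0375), which became 0.44 (adjusted p = 0.192) with library 3 as the only shRNA3 library. In that comparison the members' median log2 difference was 0.11, where that of all tested genes was 0.0. The count of 9 was 0 without any 1 NC library, any 1 shRNA2 library, shRNA1 library 2, or shRNA3 library 1 or 2, it was 2 without shRNA1 library 1, and it was 22 without shRNA3 library 3. Here too no share of all genes was set beside the refits, so the moves cannot be read as particular to the members. The INSIG1 call was kept only without shRNA1 library 3 (adjusted p = 0.0482) or shRNA3 library 3 (adjusted p = 4.86e-11).

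The members are part of a wider set of lipid genes. Of 20 other listed genes of sterol sensing, last synthesis steps, uptake and efflux, 19 were tested. For the mean of the 3 hairpins 3 rose, SCAP and SCARB1 among them, and 10 fell (MBTPS1, MBTPS2, ACAT2, GGPS1, NPC1, NPC2, LIPA, VLDLR, ABCA1 and CH25H), beside 27.9% and 32.2% of all tested genes. Their median log2 change was -0.57, where it was 0.82 for the 30 members and -0.03 for all tested genes. SCARB1, a lipoprotein receptor, read 111, 113 and 104 CPM in NC and 213 to 382 CPM in the shRNA libraries (mean change 1.29, adjusted p = 9.16e-06). VLDLR, another lipoprotein receptor, had 218, 243 and 199 counts in NC, 4, 0 and 1 with shRNA1, 3, 0 and 0 with shRNA2 and 0 in each shRNA3 library, and against the floor of 3 counts per library it was at least 49.6-fold lower with shRNA3. SCAP, the escort protein of SREBPs, rose with each hairpin by 0.87, 1.51 and 1.05 on the log2 scale, and by 1.42 with shRNA3 library 3 alone.

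Of 26 other genes of fatty acid and glycerolipid synthesis 25 were tested, 6 rose and 9 fell for the mean of the hairpins, and the median was -0.17. Of 17 genes of fatty acid oxidation 16 were tested, 5 rose and 5 fell, and the median was 0.17. These counts lie near the 27.9% and 32.2% of all tested genes. AGPAT2, which acylates lysophosphatidate, rose by 1.04, 1.23 and 2.08, and by 1.57 with shRNA3 library 3 alone. ELOVL3, an elongase of very long chains, was lower by log2 changes of -2.23, -2.74 and -1.82 from 2.57, 2.36 and 2.38 CPM in NC, and the last was -1.26 (adjusted p = 0.0771) with library 3 alone. PDK4, a kinase that inhibits pyruvate dehydrogenase, had 0 counts in the NC libraries and was at least 5.22-fold higher with shRNA1, 17.4-fold with shRNA2 and 13.0-fold with shRNA3 than the highest floor in NC. PPARA, a nuclear receptor that drives oxidation genes, was lower by log2 changes of -1.25, -0.88 and -0.81, and -1.31 with shRNA3 library 3 alone.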

How the data were processed

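RNA was sequenced from 12 libraries of SCC-15 cells. The authors deposited 1 table of estimated counts per gene without library scaling, and 13.8% of its values are not whole. HISAT2, HTSeq 0.11.2 and GRCh38 are named in the submitters' processing notes, the library kit (NEBNext Ultra RNA) in the labels' protocols. The annotation and the use of strand are not given in the sources used here.

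The deposited counts were rounded, scaled by TMM and filtered with filterByExpr (minimum count 10, minimum total 15). They were then fitted with edgeR 4.0.16 in R 4.3.3 (quasi-likelihood F test, robust, two-sided) in 1 model of the 4 groups, and p-values were adjusted by Benjamini-Hochberg over 17532 genes. The common biological coefficient of variation was 0.289 with 8 residual degrees of freedom. A standard error is the log2 change over the square root of F. Values were recomputed with DESeq2 1.42.0 and the alternatives of the closing section, and the scripts were tested on simulated data. The floors allow for counting error only: the libraries carry no molecular identifiers, so reads are not independent molecules. Symbols were found for 60463 of the 61044 IDs, and lengths and positions came from GENCODE 29. On library totals in place of TMM, the median log2 change of all genes with shRNA3 was -0.35, not -0.03. The share of its calls that were higher was then 35.1%, not 48.9%, and 16 members were higher and 5 lower. Of the 30 members, 18 overlap a gene on the opposite strand and 9 a gene on the same strand.

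The labels do not say whether samples with the same replicate number were handled together, and the main model used no pairing. Deviations of libraries with the same number correlated at a mean of -0.00434 over 18 pairs. Those with different numbers correlated at 0.00186 over 36 pairs. These values show no shared signal by number but cannot show how the samples were handled. The members and gene lists were chosen with earlier results of these data known. Values in every library were given for up to 12 members that passed for all 3 hairpins with 1 sign (those with the largest smallest change), the regulators SREBF1, SREBF2, INSIG1 and INSIG2, any member called in opposite directions (there were 0), and the member with the largest difference between each pair of hairpins. Some members of the other lists are not reported here by name. In each other list the largest rise and the largest fall were named. Other members with values were named beside these after their values were seen.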

Additional observations from a re-analysis of the deposited data

How the results depend on the processing

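The fit without shRNA3 libraries 1 and 2 leaves 1 library in that group, so its counts are not listed in this section. The number of members higher or lower against NC stayed within 1.5 times of its value under each other alternative but these. Higher with shRNA2 went from 10 to 19 in a fit of only the libraries compared. Lower with shRNA3 went from 3 to 5 on library totals. Lower for the mean of the hairpins went from 5 to 2 when a log2 change of at least 1 was asked as well. Leaving out each library in turn gave 9 to 16 higher with shRNA2 and 4 to 8 lower with shRNA1. Calls over all genes moved as well: lower with shRNA3 was 27.6% with TMM and 33.9% on library totals. No share of all genes was set beside the other counts here, so their moves cannot be read as particular to the members.

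Differences between hairpins moved with most choices. Higher in shRNA1 than shRNA2 (2) became 1 on library totals and 0 with no filter on low counts. It became 8 with only the libraries compared and 0 with a log2 change of at least 1. Lower (1) became 0 with DESeq2 size factors, 0 with no filter and 5 with only the libraries compared. Higher in shRNA1 than shRNA3 (2) became 0 with no filter, with only the libraries compared and with the log2 threshold. Lower (14) became 9 on library totals, 7 with no filter and 0 with only the libraries compared. Lower in shRNA2 than shRNA3 (9) became 4 on library totals, 3 with no filter and 14 with a mean of at least 50 counts. It became 0 with only the libraries compared and 16 with DESeq2's Wald test, and higher (0) became 1 with the Wald test. Leaving out each library gave 0 to 10 and 0 to 5 for shRNA1 against shRNA2, 0 to 3 and 1 to 20 for shRNA1 against shRNA3, and 0 to 1 and 0 to 22 for shRNA2 against shRNA3 (higher and lower). Calls over all genes moved too. On library totals, lower in shRNA1 than shRNA3 went from 18.1% to 11.0% of all genes. Lower in shRNA2 than shRNA3 went from 6.43% to 2.49%. Whether the members moved more than other genes was not tested. Fewer samples or fewer genes enter some of these fits, and for the rest the cause was not tested.

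Signs turned only when shRNA3 libraries 1 and 2 were left out. Against NC, FDFT1 became -0.26, MSMO1 -0.03 and STARD4 -0.78. In shRNA1 against shRNA3, FDFT1 became 0.66, SQLE 0.33, MSMO1 0.59, INSIG1 0.82, STARD4 0.49 and ACSS2 0.44. In shRNA2 against shRNA3, HMGCS1 became 0.21, FDFT1 0.53, MSMO1 0.26, INSIG1 0.44 and STARD4 0.21. Of the 105 single-gene calls, 104 held with DESeq2's Wald test and 105 without shRNA3 library 3.

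With the replicate number as a block, members called against NC went from 19 to 16, 16 to 16 and 22 to 21 for shRNA1, shRNA2 and shRNA3. In the block fit, shRNA1 against shRNA2 gave 1 higher and 0 lower, and lower in shRNA2 than shRNA3 became 1. Genes called between shRNA2 and shRNA3 went from 1462 to 378 with the block.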
